A study of Mus musculus with 4 samples.

Results

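The inner root sheath keratins are the structural proteins of the sleeve of cells that encloses and moulds the growing hair shaft. Members were all probe sets annotated to exactly one of the 8 genes Krt25, Krt26, Krt27, Krt28, Krt71, Krt72, Krt73 and Krt74, and 7 of the 45101 probe sets of the array met this rule. They measured 7 of the 18193 named genes on the array: 4 type I genes (Krt25 to Krt28) and 3 type II genes (Krt71 to Krt73), with 1 probe set for each gene. Krt74, which RefSeq lists as a transcribed pseudogene in the mouse, had no probe set named here.

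The arrays measured RNA of cells sorted from the skin of FVB mouse pups at postnatal day 4, 24 h after doxycycline. Induced pups (2 arrays) carried K14-rtTA, TRE-miR-203 and K14-H2BGFP, so that a keratin 14 promoter drove the doxycycline-dependent activator of a miR-203 transgene in basal and outer root sheath keratinocytes and their precursors. Control littermates (2 arrays), labelled uninduced and wild type, also carried TRE-miR-203 and K14-H2BGFP but lacked the activator. The activator and miR-203 therefore cannot be told apart. That the control littermates also received doxycycline is implied by the design but not stated for each sample. The sort gate, the number of animals behind a sample and whether a number pairs littermates are not given in the sources used here, so p-values measure the spread between these samples. The microRNA itself was not measured by the probe sets used here. Its mature form is shown because it is the molecule that was switched on, with the seed (bases 2 to 8) in capitals, as RefSeq gives it on GRCm38.p6 (chr12:112130927-112130948, + strand).
mmu-miR-203-3p: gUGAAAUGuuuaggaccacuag

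Keratins assemble as obligate pairs of a type I and a type II chain, so a cell layer needs partners from both families to build filaments. The inner root sheath has a Henle layer, a Huxley layer and a cuticle, all of which arise from matrix cells at the base of the growing follicle. Krt25, Krt27, Krt28 and Krt71 are made in all of these layers, whereas Krt26, Krt72 and Krt73 are known from the sheath cuticle. Mutations of Krt71 give mice a wavy coat. At postnatal day 4 mouse follicles are still forming, and the sheath is being built together with the first hair shafts.

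All 7 genes gave higher values on both induced arrays than on both control arrays, by 1.56-fold (Krt25) to 2.32-fold (Krt26). Every one of the 7 had its lowest value on control replicate 1 and its highest on induced replicate 2. No gene passed the test over all probe sets. Values are log2 RMA values as deposited, differences are induced minus control means with the standard error (SE) of limma's fit (n = 2 and 2), and adjusted p is Benjamini-Hochberg over 27022 probe sets. In sorted bulk RNA, more cells of a type and more RNA per cell cannot be told apart.

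Krt25, a type I chain found throughout the sheath, had values of 12.55 and 12.80 on the control arrays and 13.21 and 13.42 on the induced arrays. Its difference of 0.64 ± 0.13 (SE), or 1.56-fold, was the smallest of the 7, and its induced mean lay 1.29 below the highest value on any array (limma, adjusted p = 0.238). Krt26, the type I chain of the sheath cuticle, had values of 8.82 and 9.24 on the control arrays and 10.19 and 10.29 on the induced arrays. The gap between its groups was at least 0.96, while the controls were 0.41 apart and the induced samples 0.10. This was the largest difference of the 7 (1.21 ± 0.16, 2.32-fold, limma adjusted p = 0.158).

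Krt27, whose product pairs with type II chains across the sheath layers, read 11.62 and 11.97 in the controls against 12.53 and 12.75 after induction. Both induced values were thus above both controls, by 0.55 at the closest, and the means differed by 0.84 ± 0.15 (1.79-fold, limma adjusted p = 0.205). Krt28, another type I chain of all sheath layers, read 9.30 and 9.83 in the controls against 10.37 and 10.84. Here the closest approach of the groups (0.54) was about as wide as the gap between the controls (0.53), with a difference of 1.04 ± 0.23 (2.05-fold, limma adjusted p = 0.265).

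Among the type II chains, Krt71 had values of 11.02 and 11.44 on the control arrays and 11.97 and 12.29 on the induced arrays. The groups were 0.53 apart at the closest and the means differed by 0.90 ± 0.18 (1.86-fold, limma adjusted p = 0.229). Krt72, of the sheath cuticle, had values of 9.76 and 10.31 on the control arrays and 11.02 and 11.30 on the induced arrays, a difference of 1.13 ± 0.20 (2.19-fold, limma adjusted p = 0.205). Krt73, also of the cuticle, had values of 9.48 and 9.95 on the control arrays and 10.33 and 11.00 on the induced arrays. It was the 1 gene of the 7 whose groups were closer to each other (0.37) than its replicates were (0.68 between the induced samples), and its difference was 0.95 ± 0.26 (1.93-fold, limma adjusted p = 0.337).

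**Figure D1:**
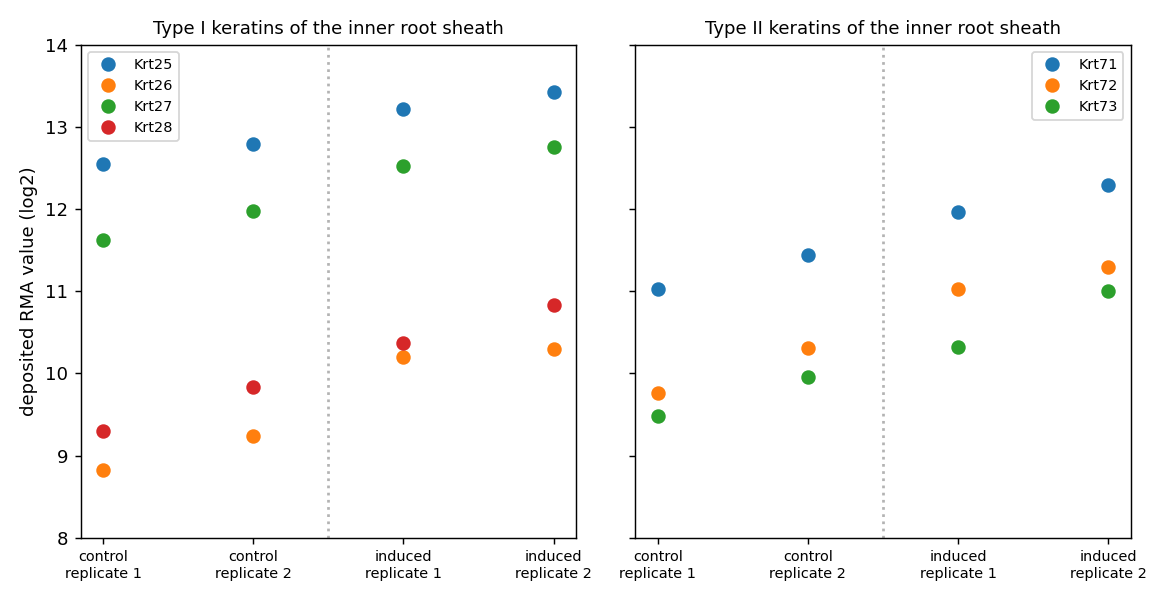
Deposited log2 RMA value of each inner root sheath keratin on the 4 arrays, type I genes at left and type II at right; each point is 1 array. For all 7 genes both induced points lie above both control points, with control replicate 1 lowest and induced replicate 2 highest.

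Of the 7 probe sets 0 had an adjusted p under 0.05 in limma, as did 0% of all probe sets tested. All 7 had an unadjusted p under 0.05 with a higher induced mean (0.000272 to 0.0113 in limma), a call made for 5.41% of probe sets. When eBayes let the prior variance depend on level (trend) and downweighted outlying variances (robust), 4 of the 7 (Krt25, Krt26, Krt27 and Krt72) had an adjusted p under 0.05, where 0.252% of probe sets were called higher, and limma's adjusted p for the 7 ran from 0.0186 to 0.160. Groups that did not overlap with the induced arrays higher were seen for 7 of 7 members and for 20.1% of the 13489 genes tested. The sequence from control replicate 1 as the lowest through control replicate 2 and induced replicate 1 to induced replicate 2 as the highest was seen for 7 of 7 members and 5.34% of genes. A single gene tested by exact permutation of 2 against 2 arrays cannot give a two-sided p below 0.333.

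Type I and type II genes were higher by like amounts, array by array. With each gene set against its own control mean, the type I median was -0.19 on control replicate 1, 0.19 on control replicate 2, 0.77 on induced replicate 1 and 1.11 on induced replicate 2. The type II median was -0.24, 0.24, 0.74 and 1.27 on the same arrays. On each array the medians of the types lay within 0.16 of each other, while the arrays of a group differed by 0.34 to 0.53 between the induced and 0.38 to 0.47 between the controls. Over genes, the median difference between the groups was 0.94 for the 4 type I genes (1.92-fold) and 0.95 for the 3 type II genes (1.93-fold), against -0.00 for all genes tested.

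Induced replicate 1 stood apart from the other arrays by its sex-linked transcripts: Eif2s3y, a gene of the Y chromosome, read 9.38 there against 2.52 to 2.82 elsewhere, and Xist, made from the inactive X chromosome, read 5.86 against 10.57 to 11.19. Without this array the type I median was 1.11 and the type II median 1.27, and the 7 differences ran from 0.75 (Krt25) to 1.29 (Krt73). Without induced replicate 2 the medians were 0.77 and 0.74, and Krt73 had a difference of 0.61 where it had 0.95 with all arrays. The array medians lay between 4.74 and 4.79. The 3' to 5' signal difference of the actin control transcript was 1.05 on control replicate 1 and 1.14 to 1.16 on the other arrays, so it was lowest where the sheath keratins were lowest. Its part in the result was not tested.

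Both sets of sheath keratins are neighbours on their chromosomes, type I on chromosome 11 and type II on chromosome 15, and the tested genes directly beside them had small differences of the opposite sign. Krt24, which precedes Krt25 in RefSeq order, had values of 5.69 and 5.66 on the control arrays and 5.62 and 5.49 on the induced arrays. Krt10, the suprabasal epidermal keratin that follows Krt28, differed by -0.07 ± 0.10 (SE). Krt5, the basal epidermal keratin that precedes Krt71, differed by -0.17 ± 0.09. Beyond Krt73 come Krt2, which did not pass the filter on dim probe sets, and Krt1, a suprabasal epidermal keratin, at -0.11 ± 0.10. Krt10, Krt5 and Krt1 had control means of 14.30, 13.80 and 14.15, near the highest value on any array (14.61). Whether such levels limited their differences was not tested. On the far side of Krt5 lie Krt6a and Krt6b, keratins of the companion layer and of stressed epidermis, which had higher values after induction (0.66 ± 0.11 and 1.36 ± 0.36). None of these neighbours passed limma's test (adjusted p of 0.201 to 0.901 over those tested). Krt12, the corneal keratin that lies beyond Krt10, was higher without overlap (0.34 ± 0.17 SE, limma adjusted p = 0.577).

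**Figure D2:**
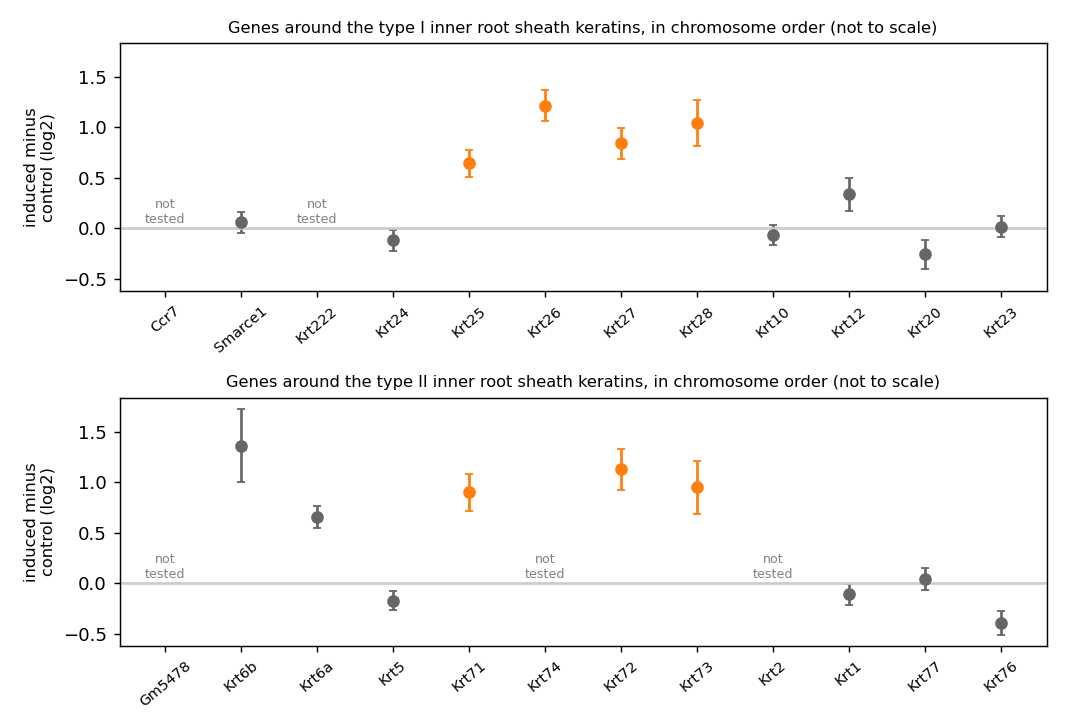
Induced minus control difference (log2, bars are the standard error of limma's fit) of the sheath keratins in orange and their neighbours in grey, in the order RefSeq gives, not to scale; "not tested" marks genes with no probe set past the filter. The 7 sheath keratins lie between 0.64 and 1.21, while Krt24, Krt10, Krt5 and Krt1 lie between -0.17 and -0.07.

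Promoter letters of 4 members are shown because these genes move together from separate chromosomes: those of the largest and the smallest difference in each type. The other 3 measured members were searched likewise. Each line holds the 250 bases before the start site annotated by RefSeq on GRCm38.p6, all from the - strand: Krt26 chr11:99337966-99338215, Krt25 chr11:99322952-99323201, Krt72 chr15:101786521-101786770 and Krt71 chr15:101743098-101743347. Capitals mark matches to the TATA box, spelled TATAAA. They also mark the core of many homeodomain sites, spelled TAATT. The third motif marked is the core of GATA factor sites, spelled GATAA. Each was searched on both strands, and matches could overlap.
Krt26: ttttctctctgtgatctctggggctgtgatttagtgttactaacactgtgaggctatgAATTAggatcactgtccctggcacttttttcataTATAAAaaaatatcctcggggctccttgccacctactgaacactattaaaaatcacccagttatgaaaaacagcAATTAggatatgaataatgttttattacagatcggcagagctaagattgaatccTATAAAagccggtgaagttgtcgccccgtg
Krt25: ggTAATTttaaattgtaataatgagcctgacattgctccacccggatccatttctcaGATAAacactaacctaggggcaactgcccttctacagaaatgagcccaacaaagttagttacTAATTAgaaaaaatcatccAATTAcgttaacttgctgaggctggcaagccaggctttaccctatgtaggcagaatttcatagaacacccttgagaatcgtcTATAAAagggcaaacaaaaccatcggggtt
Krt72: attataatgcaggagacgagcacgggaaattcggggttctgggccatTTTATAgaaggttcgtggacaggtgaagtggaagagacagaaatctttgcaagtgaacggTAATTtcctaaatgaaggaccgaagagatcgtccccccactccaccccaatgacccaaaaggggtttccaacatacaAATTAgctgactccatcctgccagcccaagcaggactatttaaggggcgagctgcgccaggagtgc
Krt71: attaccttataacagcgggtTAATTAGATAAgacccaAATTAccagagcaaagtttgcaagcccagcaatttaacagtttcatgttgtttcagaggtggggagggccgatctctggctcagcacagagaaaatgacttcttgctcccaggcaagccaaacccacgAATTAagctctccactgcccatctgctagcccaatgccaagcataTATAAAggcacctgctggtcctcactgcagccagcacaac

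These motifs were chosen after the letters had been seen. TATAAA was found in all 7 promoters, in 10 of 29 promoters of other keratin genes (34.5%) and in 12.4% of all 32851 promoters. Its first base lay 30 bases before the start of Krt25, Krt26, Krt28 and Krt73, 40 before that of Krt71 and 15 before that of Krt27. In Krt72 the match was on the opposite strand and 203 bases away. TAATT was present in all 7, with 5 matches in Krt73 and 4 each in Krt25, Krt28 and Krt71, against 31% of other keratin promoters and 25% of all promoters. TAATTA reads as TAATT on both strands and counts as 2 overlapping matches. GATAA was found in 5 of 7, all but Krt26 and Krt72, against 48.3% and 22.6%. A match describes the letters and is not evidence of binding.

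**Figure D3:**
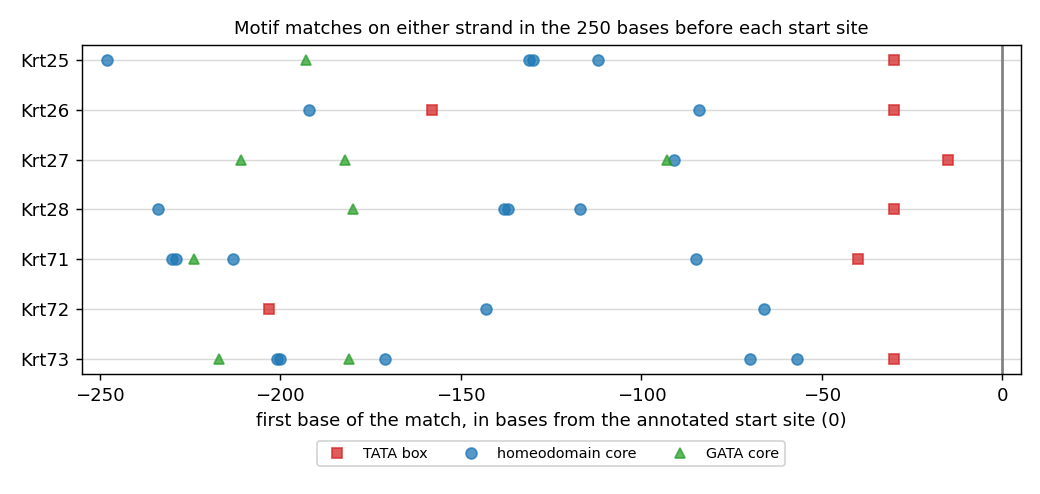
Matches to the 3 motifs on either strand in the 250 bases before the start site of each of the 7 measured genes; the horizontal axis is the distance of the first base from the start, in bases. TATA box matches line up 30 bases before the start in 4 genes, and homeodomain core matches occur in all 7.

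Partners and regulators of the sheath were higher in part. Of 18 tested genes from a list of 19, 17 had a higher induced mean and 12 had both induced arrays above both controls, with a median difference of 0.18. Of all 13489 genes 6686 had a higher mean, and 20.1% were higher without overlap. Dsg4 had no probe set named here. Past an unadjusted p of 0.05 in limma there were 8 higher and 0 lower, a call made higher for 4.4% of genes, and 0 passed with adjustment over all probe sets. Tchhl1, a trichohyalin-like gene, read 6.61 and 7.02 on the control arrays and 8.06 and 8.28 on the induced arrays (1.35 ± 0.16 SE). Tchh, encoding trichohyalin, the matrix protein of the sheath, read 11.69 and 11.93 against 12.26 and 12.48, a difference of 0.56 ± 0.13. Padi3, a peptidylarginine deiminase that modifies trichohyalin, read 8.22 and 8.61 against 9.31 and 9.53, a difference of 1.01 ± 0.16. The transcription factor gene Foxn1, needed for hair shaft differentiation, differed by 0.79 ± 0.11.

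Further genes of the list, picked after their values were seen, covered a wide range. The homeobox genes Hoxc13 and Msx2 of the follicle matrix differed by 0.88 ± 0.25 and 0.70 ± 0.20 (SE), and Dlx3, a homeobox gene of the matrix, sheath and shaft, by 0.41 ± 0.13. Gata3, a transcription factor required for the inner root sheath and also made in epidermis, read 9.29 and 9.14 on the control arrays and 9.28 and 9.39 on the induced arrays, so the groups overlapped. Those of Cux1, also of the list, overlapped as well, with 7.93 and 8.02 on the control arrays and 7.95 and 8.29 on the induced arrays. The cross-linking enzyme genes Tgm3 (0.12 ± 0.20) and Tgm1 (0.07 ± 0.10) and the cystatin gene Cst6 (0.03 ± 0.10), all of which the epidermis expresses too, also overlapped. Dsc1, a desmosomal cadherin of the upper epidermis and the sheath, was the 1 gene with a lower mean (-0.08 ± 0.09). Its groups did not overlap, with 12.87 and 12.81 on the control arrays and 12.77 and 12.76 on the induced arrays.

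**Figure D4:**
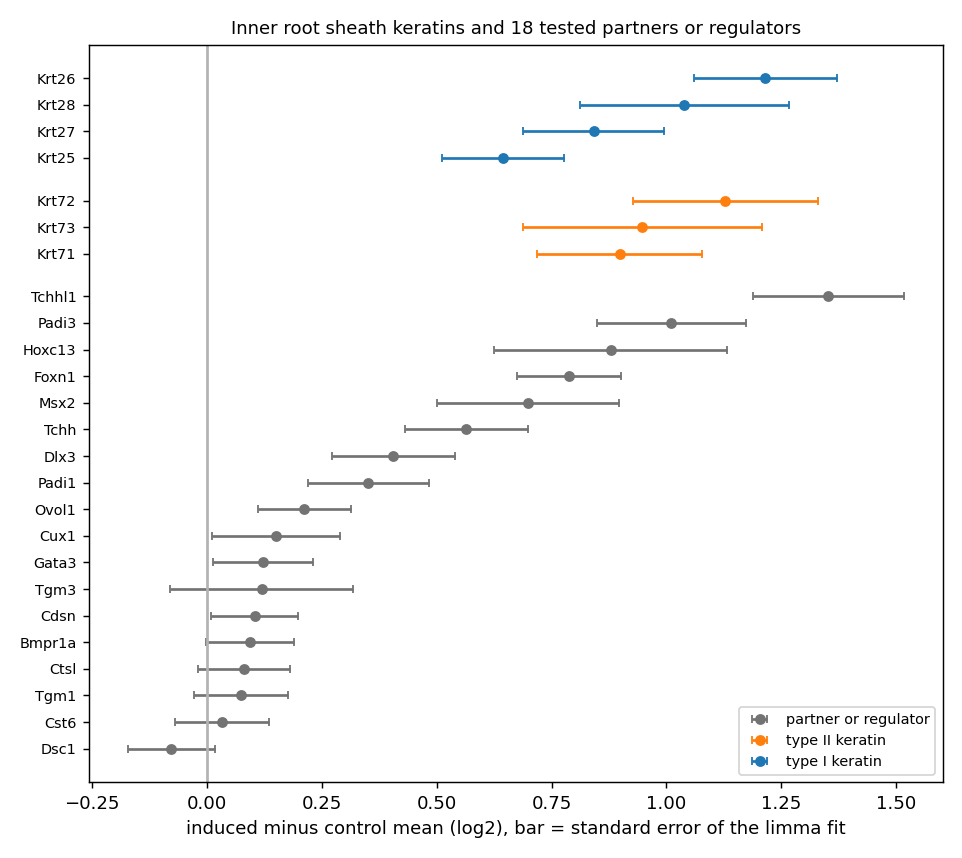
Induced minus control difference (log2) of the 7 sheath keratins and the 18 tested partners or regulators; points are differences of the means of 2 and 2 arrays and bars the standard error of limma's fit. Tchhl1, Padi3, Foxn1, Hoxc13 and Msx2 lie in or above the range of the sheath keratins (0.64 to 1.21). Gata3, Tgm3, Cdsn and Cst6 lie near 0, although Cdsn was higher without overlap.

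Other keratins of the follicle were compared array by array with the sheath. All 12 tested hair shaft keratins had a higher induced mean, 11 without overlap where 20.1% of all genes were, with a median difference of 0.86 (1.82-fold). Relative to the control mean their median was 0.97 on induced replicate 1 and 0.71 on induced replicate 2, whereas both types of sheath keratin had the larger value on induced replicate 2. The value on induced replicate 2 exceeded that on induced replicate 1 for 7 of 7 sheath keratins, 4 of 12 shaft keratins and 7184 of 13489 genes. Krt86, a shaft cortex keratin, read 11.37 and 10.84 on the induced arrays and 9.93 and 10.35 in the controls. Among 6 companion layer keratins 4 had a higher mean, as 6686 of 13489 genes did, and 3 were higher without overlap, against the same 20.1% (median 0.34): Krt75 read 8.89 and 9.32 on the control arrays against 9.89 and 10.29 after induction, but Krt16 differed by -0.18 ± 0.14 (SE). The 7 tested epidermal keratins had a median of -0.11, 5 of them lower without overlap, where 19.3% of genes were. Krt15, a basal and outer root sheath keratin, differed by -0.33 ± 0.10 and Krt14 by -0.13 ± 0.09, whereas Krt80 was higher without overlap (0.30 ± 0.10).

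**Figure D5:**
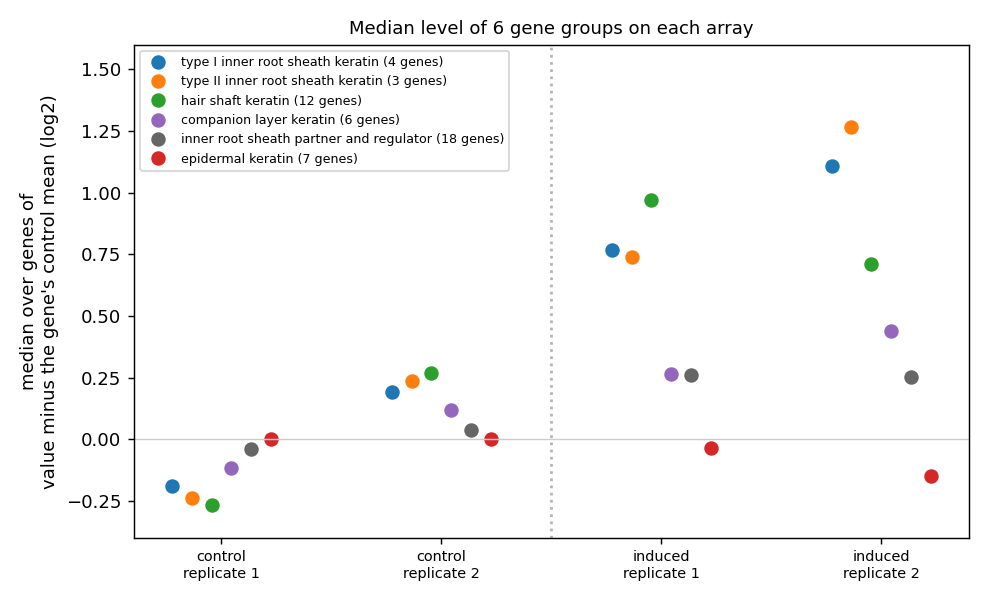
Median over genes of the value minus the gene's control mean (log2) for 6 gene groups on each of the 4 arrays. Sheath keratins of both types stand at 0.74 to 1.27 on the induced arrays, hair shaft keratins at 0.97 and 0.71, and epidermal keratins at -0.04 and -0.15.

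The genes whose profile over the 4 arrays lay nearest to the sheath keratins included 2 other follicle keratins and Padi3. Nearness was the root mean square, over the 4 arrays, of the difference between a gene's mean-centred log2 values and the median profile of the 7 members, which stood at -0.71 and -0.25 for the controls and 0.29 and 0.66 for the induced arrays. Krt75, the companion layer type II keratin, was nearest with a distance of 0.023, closer than any member (0.036 for Krt71 to 0.182 for Krt25). Padi3 followed at 0.065, Crym, encoding mu-crystallin, at 0.075, Srgn, encoding the proteoglycan serglycin, at 0.083, and the shaft cuticle keratin Krt82, whose probe set is marked as matching several transcripts, at 0.087. The connexin gene Gja3 (0.095), Taf15 (0.100), Ly6g6g (0.106), the protease gene Ctse (0.106) and Tm4sf1 (0.107) completed the 10 nearest. The control mean of the Taf15 probe set, 3.93, was below the filter level of 4.17. Nearness over 4 arrays is a description of these samples.

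Keratinocyte markers were high on every array, with Krt5 at 13.61 to 13.82 and Krt14 at 13.96 to 14.13. Of the 9 tested epidermal keratinocyte markers 6 were lower without overlap, where 19.3% of all genes were, and 0 were higher without overlap. Among the 6, Krt5, Krt14, Krt1 and Krt10 also belong to the epidermal keratins counted above. Trp63 and Itga6 were lower by their brightest probe sets only. Another Trp63 probe set was higher without overlap (0.46 ± 0.12 SE), and their remaining probe sets overlapped. Of the marker lists of other cells, melanocyte genes (8 of 8) and red blood cell genes (3 of 3) had every tested member higher in mean. The melanocyte genes had 2 of 8 higher without overlap, near the 20.1% of all genes, and a median of 0.18, which was -0.12 without induced replicate 2, and their summed linear value ran from 4183 to 4365 on the control arrays and from 3821 to 5801 on the induced arrays. All 8 had a larger value on induced replicate 2 than on induced replicate 1, as did the sheath keratins, all 4 tested dermal fibroblast markers and all 5 tested sebaceous gland markers. Dermal papilla markers had a median of 0.02 over 5 of 9 genes tested, with Sox2 and Corin below the filter, and summed values of 206 to 211 on the control arrays and 225 to 304 on the induced arrays. The sum mostly followed Bmp4, which read 7.08 and 7.77 on the induced arrays against 6.92 on both controls. The other tested papilla genes had control means of 4.25 to 4.61, and Alx4 was lower without overlap while Fgf7 was higher. Medians were -0.16 for dermal fibroblasts (4 of 8 tested, Col1a1 and Pdgfra below the filter), -0.23 for endothelium (2 of 6, Pecam1 and Cdh5 below it), -0.03 for immune cells, -0.13 for skeletal muscle, 0.14 for red blood cells, 0.11 for sebaceous gland and -0.11 for epidermal keratinocytes. Of the 5 tested sebaceous gland markers 3 were higher and 2 lower, all without overlap. Of the 3 tested red blood cell markers 2 were higher without overlap, with Slc4a1 at 0.71 ± 0.11 (SE). The other, Alas2, differed by 0.14 at a control mean of 4.19, near the filter level of 4.17. Hba-a2 differed by 0.02 and its groups overlapped, and Hbb-bs, Hbb-bt and Hba-a1 were not tested. Other keratins of the type I and type II clusters had medians of -0.10 and 0.15. The part of these cells in the sheath keratin result was not tested.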

How the data were processed

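The authors deposited log2 values per probe set made with RMA, per the submitters' processing notes, which give no version or chip definition. Per the labels, each biotin-labelled RNA went to its own Affymetrix array. RMA normalizes arrays to a shared distribution, which hides any change in a cell's total RNA. Of 45101 probe sets, 64 AFFX controls were left out, and 34945 of the rest were annotated to 1 gene, with symbols updated through the RefSeq gene table of GRCm38. Probe sets with a mean at or above the 40th percentile (4.17) were tested: 27022, for 13489 genes, each gene given by its probe set with the highest mean. All 7 member probe sets passed, in both groups, and 0 carried a suffix that marks shared probes. The number of columns of other samples was 0.

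Induced and control arrays were compared with limma 3.58.1 in R 4.3.3 (two-sided moderated test, threshold 0.05 after Benjamini-Hochberg adjustment, 2 residual degrees of freedom), tested on simulated data. The 16 gene lists are described by counts and medians. Named genes are all members, up to 4 per list by absolute statistic, in the text where a result turns on them, and the 10 nearest profiles. Members and lists were chosen with earlier results of these data known. Alternatives were other filters, normalizations, priors, ways of joining probe sets, the replicate number as a block, and each array left out. The number of arrays limits precision. Replicate numbers were not taken to pair samples.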

Additional observations from a re-analysis of the deposited data

Results flagged for a closer look

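Induced replicate 1 carried signal of the Y chromosome in a probe set outside the sheath keratin comparison: Eif2s3y read 9.381 there and 2.82 and 2.52 in the controls.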

How the results depend on the processing

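All 7 sheath keratins kept a higher induced mean under every alternative run. Leaving out a single array could not turn a sign, because both induced values lay above both controls. Filters, priors, blocks and ways of joining probe sets left these differences unchanged. Of the alternatives, only the normalizations could have changed the direction. Of the 7, 4 were past the threshold with eBayes set to trend and robust, 7 at an unadjusted p under 0.05, and 0 under the other alternatives, including each array left out in turn, when the count was 0 and single differences ran from 0.52 (without control replicate 1) to 1.42 (without control replicate 2). The type I median ran from 0.72 to 1.16 and the type II median from 0.71 to 1.27 without single arrays; the lone array of a group was then assumed to vary like the other group. With the replicate block 0 of the 7 passed (limma, adjusted p of 0.395 to 0.404). Deviations of same-numbered arrays correlated at -0.10 over the probe sets, and crossed numbers as a block, added after seeing this, gave 0 calls as well. The median of melanocyte markers was -0.12 without induced replicate 2, that of dermal fibroblast markers -0.48, and that of epidermal keratins -0.04. The fibroblast median was 0.15 without induced replicate 1, and the immune median ran from -0.19 to 0.15 without single arrays. At the 60th percentile filter the medians were -0.15 for sebaceous gland, 0.50 for dermal papilla and 0.71 for red blood cell markers. The dermal papilla and red blood cell values were those of Bmp4 and Slc4a1 alone, the only genes of their lists left by that filter. The filter at the 60th percentile left no endothelial marker. With 2 arrays a group, sizes of single differences are imprecise.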

Other observations

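Ordered by the sheath layers in which they are known, a grouping made after the values were seen and not tested, the cuticle keratins had differences of 1.21 (Krt26), 1.13 (Krt72) and 0.95 (Krt73), and the keratins of all layers had 0.64 (Krt25), 0.84 (Krt27), 0.90 (Krt71) and 1.04 (Krt28), so the groups overlapped. Krt25, Krt27 and Krt71 were also the brightest of the 7, with control means of 12.67, 11.80 and 11.23. The part of signal level in this order was not tested.

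Probe sets with no gene listed also followed the sheath profile. The nearest read 4.11 and 4.64 on the control arrays and 5.27 and 5.40 on the induced arrays, and the next read 6.58 and 6.84 against 7.45 and 7.68. Both lay nearer to the members' profile than the farthest of the 10 named genes.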
